A study of Mus musculus with 11 samples.

Results

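The ubiquitin-specific proteases are the largest family of deubiquitylating enzymes in mammals. The genes described here are the 45 protein-coding genes named Usp followed by a number, and at most 1 letter, that are listed for both cell types of the study, without Usp22, Usp27x, Usp51, Usp7 and Usp29. They were taken from 50 genes with such names, among 31518 genes listed for mouse embryonic stem cells (mESCs) and 29450 listed for mouse embryonic fibroblasts (MEFs). Poly(A)+ RNA was sequenced from 11 libraries of mixed DBA/2 and C57BL/6 background. The mESC libraries were 2 wild-type (WT, Atxn7l3+/+) and 3 Atxn7l3-/- lines, derived from single E3.5 blastocysts and grown with LIF, 3 µM CHIR99021, 1 µM PD0325901 and 15% serum. The MEF libraries were 3 WT and 3 labelled Atxn7l3-/-, grown in 10% serum from single E10.5 embryos after removal of the head and the gut. The null allele is constitutive, so every cell of a line carries it, and each line is a single derivation. The question addressed was whether deubiquitylating enzymes outside the SAGA module change in RNA level when ATXN7L3 is lost.

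Ubiquitin-specific proteases are cysteine proteases that cut ubiquitin from proteins or trim ubiquitin chains, and most of them have a catalytic domain of the same fold with very different flanking domains. ATXN7L3 is an adaptor that activates USP22 and the related USP27X and USP51, which remove mono-ubiquitin from histone H2B. Several of the other family members have also been described as acting on ubiquitylated histones H2A or H2B, and the remainder act in DNA repair, at the proteasome, on endosomes, at mitochondria or on the ubiquitin-like protein ISG15.

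Library totals ranged from 34515342 to 49602605 counts, and 3 counts corresponded to 0.0605 to 0.0869 CPM, the count scaled to a common library total. Atxn7l3 itself stood at 222 and 223 CPM in WT mESCs and at 3.91, 1.79 and 0.976 CPM in Atxn7l3-/- mESCs, 1.00% of the WT mean. In MEFs it stood at 79.7, 104 and 92.9 CPM in WT and at 49.2, 49.5 and 67.3 CPM in the libraries labelled Atxn7l3-/-. This was 59.9% of the WT mean (edgeR adjusted p = 0.0715), and for this RNA level alone these libraries are called labelled throughout. By western blot, the paper reports no detectable ATXN7L3 protein in its Atxn7l3-/- mESCs and MEFs, and raised H2Bub1 in both. The 6 stem cell markers summed to 3614 to 4395 CPM in mESCs and to 5.91 to 71.9 CPM in MEFs, and the 7 fibroblast markers to 6482 to 37121 CPM in MEFs and to 29.0 to 432 CPM in mESCs. Among 7 epithelial and mesothelial markers, which summed to 12.9 to 31.3 CPM in WT MEFs and to 2038 to 3087 CPM in labelled Atxn7l3-/- MEFs, the defining mesothelial genes Msln and Upk3b carried nearly all of the sum, while Epcam was at 0.153 CPM or less in every MEF library. The 5 macrophage markers summed to 444 to 874 CPM in WT and to 755 to 5223 CPM in labelled Atxn7l3-/- MEFs. Y-linked transcripts (Ddx3y, Eif2s3y and Uty) were present in 8 libraries and near 0 in Atxn7l3-/- mESC replicates 1 and 2 and in WT MEF replicate 3.

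Of the 45 genes, 34 had a promoter window in RefSeq (GRCm38.p6), taken as the 250 bases before the annotated start. These windows were rich in CG: the median number of CG dinucleotides was 23.5, against 6 over 27025 genes, and the median GC content was 64.6%, against 52.0%. A GC box (GGGCGG on either strand) was found in 22 of the 34, 64.7% against 32.9% of all genes, and a CCAAT box (CCAAT on either strand) in 7, 20.6% against 34.5%. The windows of 5 members on which the results below turn are printed 5′ to 3′ on the strand of the gene, with GC boxes and CCAAT boxes in capitals, and without bases that the GENCODE M21 annotation places in an exon of the gene. Usp13 (chr3:32817376-32817545, plus strand), Usp46 (chr5:74068432-74068661, minus strand) and Usp31 (chr7:121707443-121707692, minus strand) are shown because they were upregulated in labelled Atxn7l3-/- MEFs, Usp38 (chr8:81014929-81015156, minus strand) because it was down-regulated in Atxn7l3-/- mESCs, and Usp26 (chrX:51801234-51801483, minus strand) because its RNA was near 0 in MEFs. The start of Usp54 in RefSeq lies 22709 bases inside the gene as the deposited table gives it, so its window is not shown.
Usp13: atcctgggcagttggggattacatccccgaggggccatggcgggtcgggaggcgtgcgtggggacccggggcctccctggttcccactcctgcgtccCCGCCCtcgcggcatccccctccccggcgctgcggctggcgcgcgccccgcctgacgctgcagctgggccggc
Usp46: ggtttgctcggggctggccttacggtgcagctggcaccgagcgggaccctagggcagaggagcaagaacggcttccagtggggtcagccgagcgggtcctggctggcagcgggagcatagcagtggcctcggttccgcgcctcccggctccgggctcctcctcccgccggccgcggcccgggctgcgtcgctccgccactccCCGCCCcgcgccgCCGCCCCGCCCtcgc
Usp31: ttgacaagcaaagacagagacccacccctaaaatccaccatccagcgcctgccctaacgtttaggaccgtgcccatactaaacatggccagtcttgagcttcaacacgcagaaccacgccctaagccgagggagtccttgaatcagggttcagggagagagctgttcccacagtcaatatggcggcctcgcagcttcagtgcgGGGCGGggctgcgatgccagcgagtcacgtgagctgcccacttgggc
Usp38: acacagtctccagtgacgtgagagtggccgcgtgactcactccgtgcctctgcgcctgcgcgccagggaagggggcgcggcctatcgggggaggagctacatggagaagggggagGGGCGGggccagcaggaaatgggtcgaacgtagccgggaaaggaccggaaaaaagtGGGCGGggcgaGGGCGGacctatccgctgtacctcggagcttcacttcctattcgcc
Usp26: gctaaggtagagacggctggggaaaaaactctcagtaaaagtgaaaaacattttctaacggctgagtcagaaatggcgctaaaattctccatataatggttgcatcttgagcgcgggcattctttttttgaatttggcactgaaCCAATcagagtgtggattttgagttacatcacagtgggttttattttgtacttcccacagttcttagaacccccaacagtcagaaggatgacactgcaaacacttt
The bases of Usp46 held 3 GC boxes and 28 CG dinucleotides, those of Usp38 held 3 and 21, and those of Usp13 and Usp31 held 1 GC box each, with 19 and 13 CG dinucleotides. The window of Usp26 held 5 CG dinucleotides, no GC box and 1 CCAAT box. A match describes letters only, and the whole window of Usp13 held 1 CCAAT box more, among the bases not printed.

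In mESCs none of the 45 genes was upregulated and 3 were down-regulated in Atxn7l3-/- cells, by edgeR's quasi-likelihood test with a Benjamini-Hochberg adjusted p of 0.05 or less. Over all 17800 genes tested, 3.08% were called higher and 3.88% lower by this rule. In MEFs 41 of the 45 genes passed the filter on low counts, 4 of these were upregulated and none was down-regulated, against 5.01% of 15958 genes called higher and 4.39% called lower. At an unadjusted p under 0.05 the numbers were 11 of 45 in mESCs, against 29.8% of all genes, and 13 of 41 in MEFs, against 32.4%, so neither share of the members lay above that of all genes. DESeq2 called 1 member higher and 7 lower of 45 in mESCs, where it called 9.30% of 18437 genes higher and 9.28% lower. In MEFs it called 6 higher and 1 lower of 43, against 8.51% and 12.3% of 18986 genes. In these bulk samples, fewer cells of a type and less RNA per cell cannot be told apart.

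The fitted differences leaned to opposite sides in the cell types. In mESCs 29 of the 45 log2 fold changes lay below 0 and their median was -0.11, against 0.04 over all genes tested, and with a correction for GC content the median of the members was 0.03, on the other side of 0. In MEFs 29 of 41 lay above 0 and their median was 0.34 (0.23 with upper-quartile normalization), against -0.06 over all genes. The libraries of the genotypes did not overlap for 16 members that were lower and 5 that were higher in Atxn7l3-/- mESCs, where 25.1% and 24.6% of all genes stood apart in these directions. In MEFs they did not overlap for 18 members that were higher and 4 that were lower in the labelled Atxn7l3-/- libraries, against 20.0% and 19.8% of all genes.

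**Figure D1:**
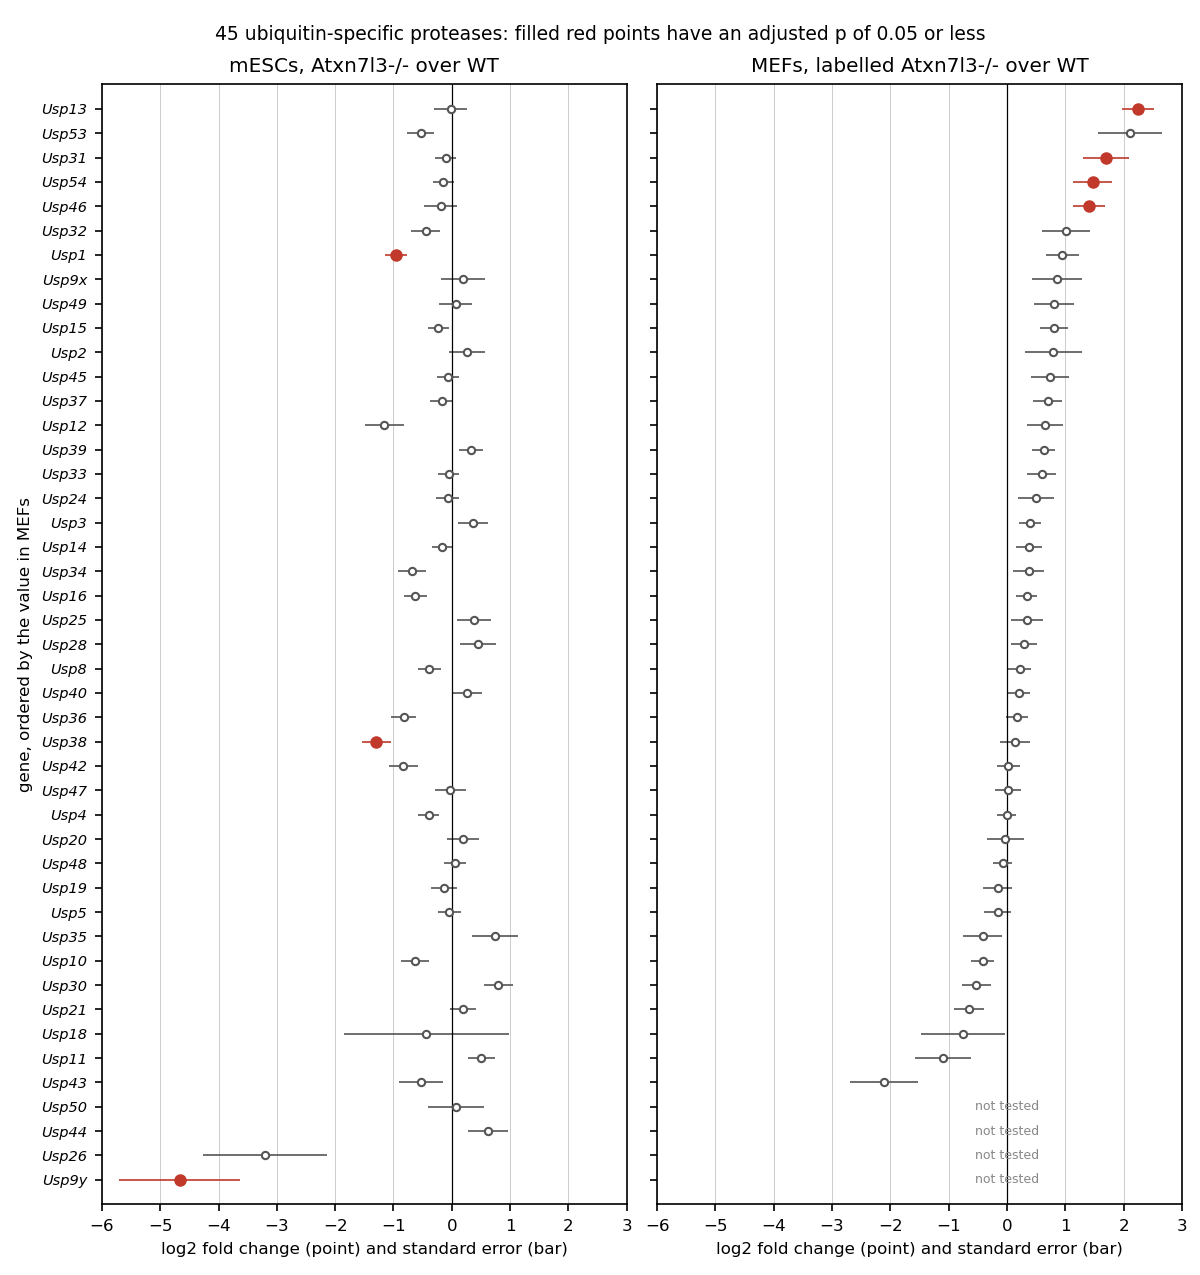
Log2 fold change (point) with its standard error (bar) for each of the 45 genes, Atxn7l3-/- over WT in mESCs (left, 2 against 3 libraries) and in MEFs (right, 3 against 3), ordered by the value in MEFs. Filled red points mark the 3 genes called in mESCs and the 4 called in MEFs, and 4 genes were not tested in MEFs.

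Single libraries weighed on these values. WT MEF replicate 2 was the lowest of the 6 MEF libraries for 23 of the 41 members, while it was the lowest for 24.6% of all genes tested, and its members lay 0.42 lower on the log2 scale than in the other WT libraries (median, against 0.06 lower over all genes). Labelled Atxn7l3-/- MEF replicate 2 was the highest of the 6 for 20 of the 41, against 26.3% of all genes. In mESCs, Atxn7l3-/- replicate 3 was the lowest of 5 libraries for 17 of the 45 members, against 24.6% of all genes.

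**Figure D2:**
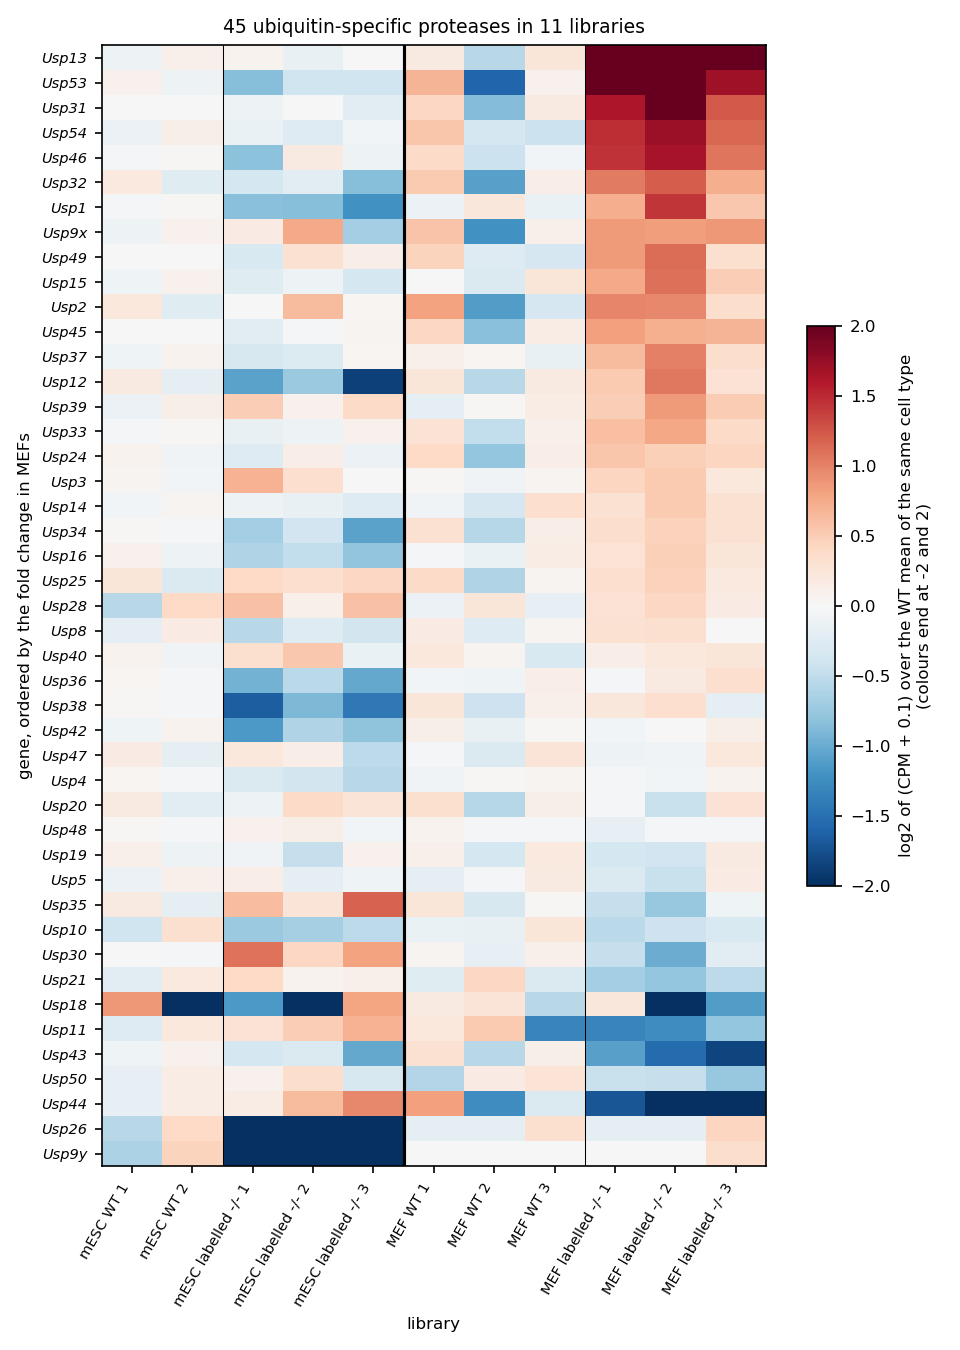
Level of each gene (rows) in each library (columns), as the log2 ratio of CPM + 0.1 to the WT mean of the same cell type, with red above and blue below it. The upper rows are red in all 3 labelled Atxn7l3-/- MEF libraries, WT MEF replicate 2 is blue in most rows, and the blue rows in Atxn7l3-/- mESCs include Usp38, Usp12, Usp1 and Usp26.

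Usp13 had the largest increase in MEFs. USP13 is a paralogue of the ubiquitin chain recycling enzyme USP5 and acts in autophagy and in quality control at the endoplasmic reticulum. Its level was 13.3, 7.95 and 13.8 CPM in WT MEFs and 48.7, 58.5 and 58.8 CPM in the labelled Atxn7l3-/- MEFs. The groups did not overlap, and the lowest labelled Atxn7l3-/- library stood far above the highest WT library. The log2 fold change was 2.24 (SE 0.277, 4.72-fold, n = 3 and 3, edgeR adjusted p = 0.0117). In mESCs the same gene stood at 12.4 and 14.3 CPM in WT and at 14.0, 12.0 and 13.4 CPM in Atxn7l3-/- cells with overlap (log2 fold change -0.02, SE 0.283, adjusted p = 0.968).

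Usp46 encodes a deubiquitylase that works with the WD40 proteins WDR48 and WDR20, known for its action on glutamate receptors in neurons and described to act on histones H2A and H2B. It stood at 66.9, 38.1 and 49.4 CPM in WT MEFs and at 140, 162 and 108 CPM in labelled Atxn7l3-/- MEFs, with no overlap. The log2 fold change was 1.41 (SE 0.276, 2.65-fold, n = 3 and 3, edgeR adjusted p = 0.0325).

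Usp54, a large member long described as inactive, was also upregulated. Its values were 34.4, 18.2 and 17.3 CPM in WT MEFs and 64.8, 76.8 and 51.6 CPM in labelled Atxn7l3-/- MEFs. The lowest labelled Atxn7l3-/- library lay above the highest WT library, and the log2 fold change was 1.47 (SE 0.332, 2.76-fold, n = 3 and 3, edgeR adjusted p = 0.0436). Usp31, a little studied member, stood at 34.4, 14.1 and 29.2 CPM in WT and at 79.8, 112 and 61.0 CPM in labelled Atxn7l3-/- MEFs, again without overlap. Its log2 fold change was 1.70 (SE 0.391, 3.25-fold, n = 3 and 3, edgeR adjusted p = 0.0451), and its adjusted p was 0.0622 in the fit that blocks on the replicate number.

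**Figure D3:**
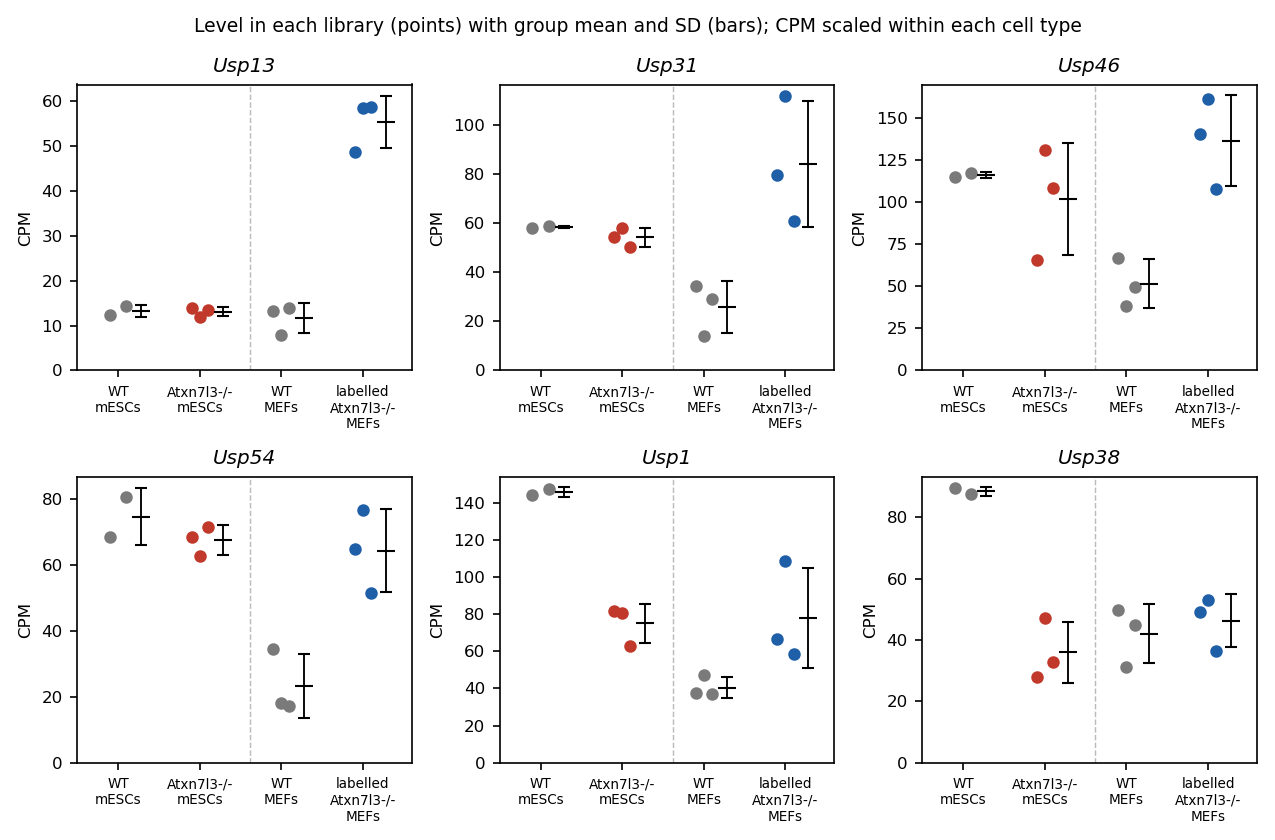
CPM, scaled within each cell type, in each library (points) with the group mean and SD (bars) for 4 genes upregulated in labelled Atxn7l3-/- MEFs and for Usp1 and Usp38, down-regulated in Atxn7l3-/- mESCs. In MEFs the labelled Atxn7l3-/- points of Usp13, Usp31, Usp46 and Usp54 lie above all WT points, while in mESCs the groups of these 4 genes overlap.

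Usp53 and Usp1 came next. Usp53, the paralogue of Usp54 and known for its part in hearing and at tight junctions, stood at 33.8, 6.97 and 22.4 CPM in WT MEFs and at 98.9, 106 and 68.5 CPM in the labelled Atxn7l3-/- MEFs. The groups did not overlap, but the WT libraries spread widely, and the log2 fold change of 2.11 (SE 0.547, n = 3 and 3) had an edgeR adjusted p of 0.0575. Usp1, the deubiquitylase of FANCD2 and PCNA in DNA repair, stood at 37.4, 47.2 and 36.8 CPM in WT and at 66.7, 109 and 58.5 CPM in labelled Atxn7l3-/- MEFs. Its groups did not overlap either, and its log2 fold change of 0.95 (SE 0.282, edgeR adjusted p = 0.0768) passed the threshold in the blocked fit (log2 fold change 0.90, adjusted p = 0.0498).

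Of the 4 genes called in MEFs, Usp13 kept its call whichever library was left out, with adjusted p-values of at most 0.0454 over all 16 alternatives. Usp46 and Usp54 lost theirs without WT replicate 2 or 3 or without labelled Atxn7l3-/- replicate 1 or 2, and Usp31 without any of the WT replicates or without labelled Atxn7l3-/- replicate 1 or 2. Without WT MEF replicate 2, 2 members were called, Usp13 and Usp53. With only the 8 libraries that had Y-linked transcripts, 2 members were called in MEFs, Usp13 (log2 fold change 2.41, adjusted p = 0.0156) and Usp11, which was lower (-1.46, adjusted p = 0.0353). The mesothelial markers moved with the same libraries as all 4 genes. Msln stood at 1.68 to 5.86 CPM in WT and 427 to 1040 CPM in labelled Atxn7l3-/- MEFs, and Upk3b at 3.75 to 16.3 and 1570 to 2004 CPM. Krt18, on the same list of 7 markers, was also called higher by edgeR. The 6 tested in MEFs had log2 fold changes from -1.58 to 7.76. The part of these markers in the differences of the 4 genes was not tested.

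On the lower side in MEFs no member passed the threshold. Usp43 had 31, 10 and 23 counts in WT MEFs and 7, 4 and 2 in labelled Atxn7l3-/- MEFs, a low level without overlap (log2 fold change -2.11, SE 0.58, edgeR adjusted p = 0.0653). Usp11, an X-linked member with a part in homologous recombination, stood at 34.5, 43.1 and 12.0 CPM in WT and at 11.9, 12.5 and 17.4 CPM in labelled Atxn7l3-/- MEFs. Its groups overlapped through WT replicate 3, the WT library without Y-linked transcripts (log2 fold change -1.10, SE 0.473, edgeR adjusted p = 0.162). Usp44, Usp26, Usp9y and Usp50 had too few counts to be tested in MEFs.

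In mESCs the down-regulated genes were Usp38, Usp1 and Usp9y. USP38 has been described in innate immune signalling and as a regulator of a histone demethylase. Usp38 stood at 89.6 and 87.5 CPM in WT and at 28.1, 47.2 and 32.8 CPM in Atxn7l3-/- mESCs. The WT libraries agreed closely and lay above all Atxn7l3-/- libraries, and the log2 fold change was -1.30 (SE 0.251, 2.46-fold lower, n = 2 and 3, edgeR adjusted p = 0.0317). In MEFs its groups overlapped, at 49.8, 31.4 and 44.9 CPM in WT and 49.1, 53.1 and 36.5 CPM in labelled Atxn7l3-/- libraries (log2 fold change 0.14, SE 0.255, adjusted p = 0.733).

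Usp1 stood at 144 and 148 CPM in WT and at 81.9, 80.7 and 62.9 CPM in Atxn7l3-/- mESCs. The groups lay far apart compared with the spread within each, and the log2 fold change was -0.96 (SE 0.193, 1.94-fold lower, n = 2 and 3, edgeR adjusted p = 0.0342). The fitted direction of Usp1 in MEFs, given above, was the opposite one. Usp9y is described below with the sex chromosomes. With 2 WT lines these calls had little reserve: Usp1 and Usp38 lost theirs without either WT replicate or without Atxn7l3-/- replicate 1, and Usp9y also without Atxn7l3-/- replicate 2. The sum of the 7 fibroblast markers moved with the genotype in mESCs, at 29.0 to 109 CPM in WT and 316 to 432 CPM in Atxn7l3-/- libraries. Only 1 of the 7, Col1a1, was called higher by edgeR, and their log2 fold changes ran from 0.04 to 3.13. The part of these markers was not tested.

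The largest fitted increases in mESCs were those of Usp30, Usp35 and Usp44, and none passed the threshold. Usp30, which is anchored in the outer mitochondrial membrane and opposes mitophagy, stood at 29.8 and 29.1 CPM in WT and at 62.4, 39.3 and 51.4 CPM in Atxn7l3-/- mESCs, without overlap (log2 fold change 0.79, SE 0.251, edgeR adjusted p = 0.0889). The log2 fold changes of Usp35 and Usp44 were 0.74 (SE 0.394, adjusted p = 0.246) and 0.62 (SE 0.338, adjusted p = 0.257).

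The members with a described activity on ubiquitylated histone H2A or H2B, the same kind of substrate as that of the SAGA module, were followed as a list of 9. In mESCs all 9 were tested and none was called, with a median log2 fold change of -0.19 against 0.04 over all genes. Of all genes tested in mESCs, 3.08% were called higher and 3.88% lower. In MEFs 8 were tested and 1, Usp46, was called higher, with a median of 0.36 against -0.06 over all genes. Of all genes tested in MEFs, 5.01% were called higher and 4.39% lower.

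Within this list 4 genes lay lower in every Atxn7l3-/- mESC library and 4 overlapped between the genotypes. Of all genes tested, 25.1% lay lower without overlap in Atxn7l3-/- mESCs. Usp12, the paralogue of Usp46, stood at 72.9 and 56.4 CPM in WT and at 30.8, 38.6 and 17.6 CPM in Atxn7l3-/- mESCs (log2 fold change -1.15, SE 0.33, edgeR adjusted p = 0.0727). Usp36, a nucleolar member, stood at 88.3 and 84.3 CPM in WT and at 44.9, 59.1 and 42.3 CPM in Atxn7l3-/- mESCs (-0.82, SE 0.212, adjusted p = 0.0584). Usp42, its paralogue, stood at 34.9 and 39.0 CPM in WT and at 16.6, 24.3 and 21.2 CPM in Atxn7l3-/- mESCs (-0.84, SE 0.249, adjusted p = 0.0788).
Usp16, an H2A deubiquitylase needed for cell cycle progression and stem cell differentiation, stood at 64.8 and 57.1 CPM in WT and at 40.1, 43.1 and 35.2 CPM in Atxn7l3-/- mESCs (-0.63, SE 0.2, adjusted p = 0.0906). In each of these 4 genes every Atxn7l3-/- mESC library lay below both WT libraries, and none passed the edgeR threshold, while DESeq2 called all 4. DESeq2 called 9.28% of all genes lower in this comparison. In Usp3, Usp21, Usp46 and Usp49 the mESC libraries of the genotypes overlapped, with log2 fold changes of 0.37, 0.20, -0.19 and 0.07.

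In MEFs the same list was ordered differently. Usp12 stood at 35.1, 20.1 and 33.7 CPM in WT and at 42.5, 61.5 and 36.4 CPM in labelled Atxn7l3-/- MEFs, without overlap (log2 fold change 0.66, SE 0.309, edgeR adjusted p = 0.188). Usp3, an H2A and H2B deubiquitylase of the DNA damage response, stood at 33.1, 31.0 and 33.9 CPM in WT and at 43.9, 46.8 and 37.8 CPM in labelled Atxn7l3-/- MEFs, also without overlap (0.39, SE 0.185, adjusted p = 0.19). Usp21 lay lower in all 3 labelled Atxn7l3-/- libraries, at 23.5, 22.1 and 26.1 CPM against 31.8, 50.3 and 30.8 CPM (-0.65, SE 0.257, adjusted p = 0.135). Usp16, Usp36, Usp42 and Usp49 had log2 fold changes of 0.34, 0.17, 0.02 and 0.81, with adjusted p-values of 0.157 to 0.943.

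Usp44, a regulator of the spindle checkpoint that is known for its expression in stem cells, was the member of this list with the lowest level in MEFs. It had 54, 6 and 19 counts in WT MEFs and 4, 0 and 1 in labelled Atxn7l3-/- MEFs, so every WT library lay above the others, but with a wide spread. Over the groups these were 79 and 5 counts, a ratio of 15.4 with an exact 95% interval of 6.33 to 48.7 that covers counting error only. In mESCs it stood at 9.84 and 12.2 CPM in WT and at 12.3, 17.0 and 21.5 CPM in Atxn7l3-/- cells, where every Atxn7l3-/- library lay above the WT libraries.

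Of the 4 members on the sex chromosomes, Usp9x, Usp11 and Usp26 lie on X and Usp9y on Y. Usp9y, a Y-linked gene expressed mainly in the germ line, had 14 and 33 counts in WT mESCs and 0, 0 and 2 in Atxn7l3-/- mESCs. Over the groups the ratio was 29.9 with an exact 95% interval of 7.83 to 254, and the edgeR adjusted p was 0.0415. Both WT mESC lines had Y-linked transcripts and Atxn7l3-/- replicates 1 and 2 lacked them, while Atxn7l3-/- replicate 3 had Ddx3y at 225 CPM but Kdm5d, another Y-linked gene, at 0.686 CPM. Genotype and sex chromosomes therefore cannot be told apart for Usp9y in replicates 1 and 2. In MEFs Usp9y had 0 counts in 5 libraries and 1 in the other, although 5 of the 6 had Y-linked transcripts.

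Usp26, an X-linked gene known from the testis, had 946 and 1750 counts in WT mESCs and 185, 172 and 4 in Atxn7l3-/- mESCs, that is 20.3 and 39.6 CPM against 5.56, 4.10 and 0.106 CPM. All Atxn7l3-/- libraries lay below both WT libraries, but the values within each group differed so much that the log2 fold change of -3.20 (SE 1.06, n = 2 and 3) had an edgeR adjusted p of 0.098. In all 6 MEF libraries it had 0 to 2 counts. Among the 34 promoter windows only those of Usp50 and Usp54, the latter inside the gene, held fewer CG dinucleotides than that of Usp26, printed above. The window of Usp11, which had RNA in all MEF libraries, held as many as that of Usp26. A part of the promoter in these levels was not tested. Usp9x, a large deubiquitylase needed in early embryos, stood at 678 and 770 CPM in WT and at 809, 1227 and 451 CPM in Atxn7l3-/- mESCs, with overlap (log2 fold change 0.20, SE 0.38, adjusted p = 0.762). In MEFs it stood at 254, 73.7 and 183 CPM in WT and at 309, 305 and 309 CPM in labelled Atxn7l3-/- libraries, all above WT (0.85, SE 0.424, adjusted p = 0.209).

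**Figure D4:**
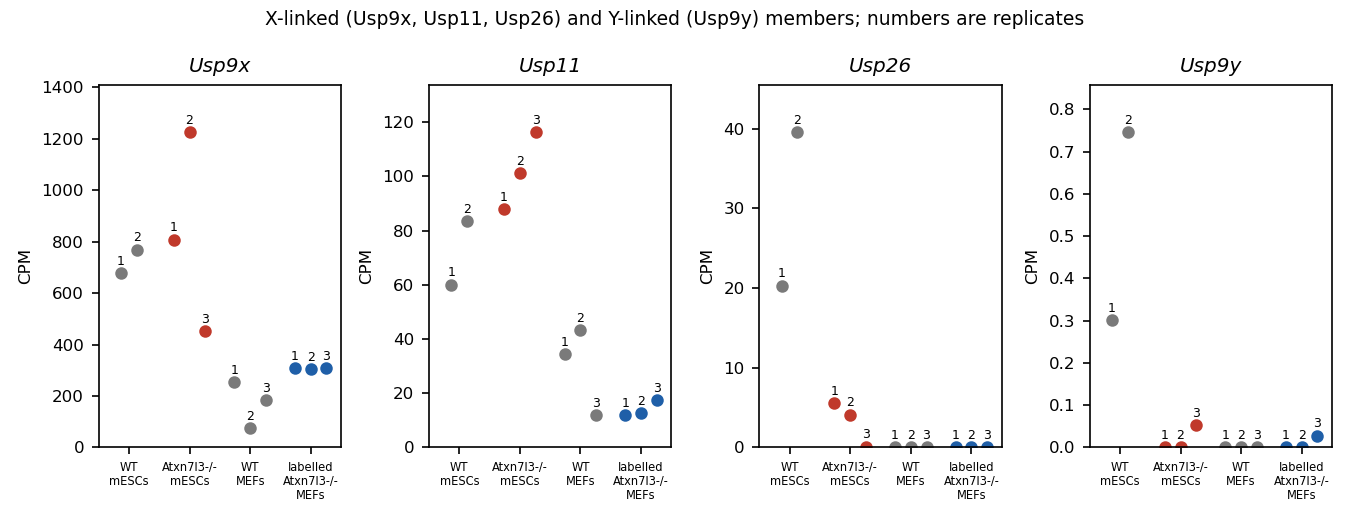
CPM of the X-linked members Usp9x, Usp11 and Usp26 and of the Y-linked Usp9y in each library (points, numbered by replicate), each panel on its own axis from 0. Usp26 and Usp9y are highest in the 2 WT mESC libraries and at or near 0 in all MEFs, and Usp11 of WT MEF replicate 3 lies with the labelled Atxn7l3-/- MEFs.

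The remaining members showed few changes in their groups. For comparison, edgeR called 3.08% of all genes higher and 3.88% lower in mESCs, and 5.01% and 4.39% in MEFs. Among 8 members with roles in DNA repair, checkpoints or p53 turnover, Usp1 was called lower in mESCs and none was called in MEFs. Of the 3 that act on free ubiquitin chains or at the proteasome, Usp13 was called higher in MEFs, while Usp5 and Usp14 had log2 fold changes between -0.17 and 0.38 in both cell types. None of the 5 that act on receptors and membrane traffic (Usp2, Usp8, Usp20, Usp32, Usp33) was called in either cell type, with values from -0.44 to 0.25 in mESCs and from -0.03 to 1.01 in MEFs. Of the 6 with roles at mitochondria, at the endoplasmic reticulum or in innate signalling, Usp38 was called lower in mESCs and none was called in MEFs. Of the 4 described as inactive, Usp39, Usp50, Usp53 and Usp54, none was called in mESCs and Usp54 in MEFs, where the 3 tested lay between 0.63 and 2.11. The remaining list, Usp24, Usp31, Usp34, Usp40 and Usp43, had values from -0.68 to 0.27 in mESCs and from -2.11 to 1.70 in MEFs, where Usp31 was called.

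Usp18, which removes ISG15 and is itself induced by interferon, varied between libraries of the same group more than between genotypes. It stood at 2.36 and 0.136 CPM in WT and at 0.511, 0.0238 and 2.24 CPM in Atxn7l3-/- mESCs, and at 4.19, 4.41 and 2.46 CPM in WT and 4.32, 0.616 and 1.65 CPM in labelled Atxn7l3-/- MEFs. The adjusted p-values were 0.863 and 0.494. Ube2l6, a conjugating enzyme for ISG15, was called higher in both cell types (log2 fold change 2.10, edgeR adjusted p = 0.0258 in mESCs, and 2.14, adjusted p = 0.0143 in MEFs).

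The effect of the genotype was then compared between the cell types by the interaction term in 1 fit of all 11 libraries. It was called for 11 of the 45 members, 10 with a higher and 1 with a lower log2 fold change in MEFs than in mESCs, against 5.68% and 4.83% of 20063 genes. The 10 were Usp1, Usp12, Usp13, Usp16, Usp31, Usp36, Usp38, Usp46, Usp53 and Usp54, and the other was Usp44. The differences were 2.72 for Usp53 (SE 0.652, adjusted p = 0.0285), 2.33 for Usp13 (SE 0.363, adjusted p = 0.00642) and 1.97 for Usp1 (SE 0.374, adjusted p = 0.0137), and between 1.02 and 1.87 for the others of the 10.
The 10 were of different kinds in their libraries. In Usp13, Usp31, Usp46 and Usp54 the MEF groups stood apart and the mESC groups overlapped. In Usp36 and Usp38 the mESC groups stood apart and the MEF groups overlapped, and in Usp1, Usp12, Usp16 and Usp53 the groups stood apart in both cell types, lower in Atxn7l3-/- mESCs and higher in labelled Atxn7l3-/- MEFs.
In the fit that blocks on the replicate number within each cell type the term was called for 4 members (Usp1, Usp13, Usp54 and Usp44), and with the 8 libraries that had Y-linked transcripts for none (for Usp13 a difference of 2.48 with 1 Atxn7l3-/- mESC library, which was assumed to vary like the others, adjusted p = 0.0736). Leaving out 1 library moved the number between 1 and 12, with 1 or 2 members called without WT mESC replicate 1 or 2, Atxn7l3-/- mESC replicate 1 or 3 or labelled Atxn7l3-/- MEF replicate 2, and 3, 4 and 7 without labelled Atxn7l3-/- MEF replicate 1, WT MEF replicate 3 and WT MEF replicate 2.

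Between the WT cell types the family leaned to mESCs. With 1 scale for all 11 libraries, 20 of the 45 members were lower and 4 were higher in WT MEFs than in WT mESCs, against 28.5% and 27.0% of 20063 genes in these directions. The median log2 fold change of the members was -0.60, against -0.03 over all genes. Cell type, culture medium and developmental stage all differ between these groups and cannot be told apart.

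**Figure D5:**
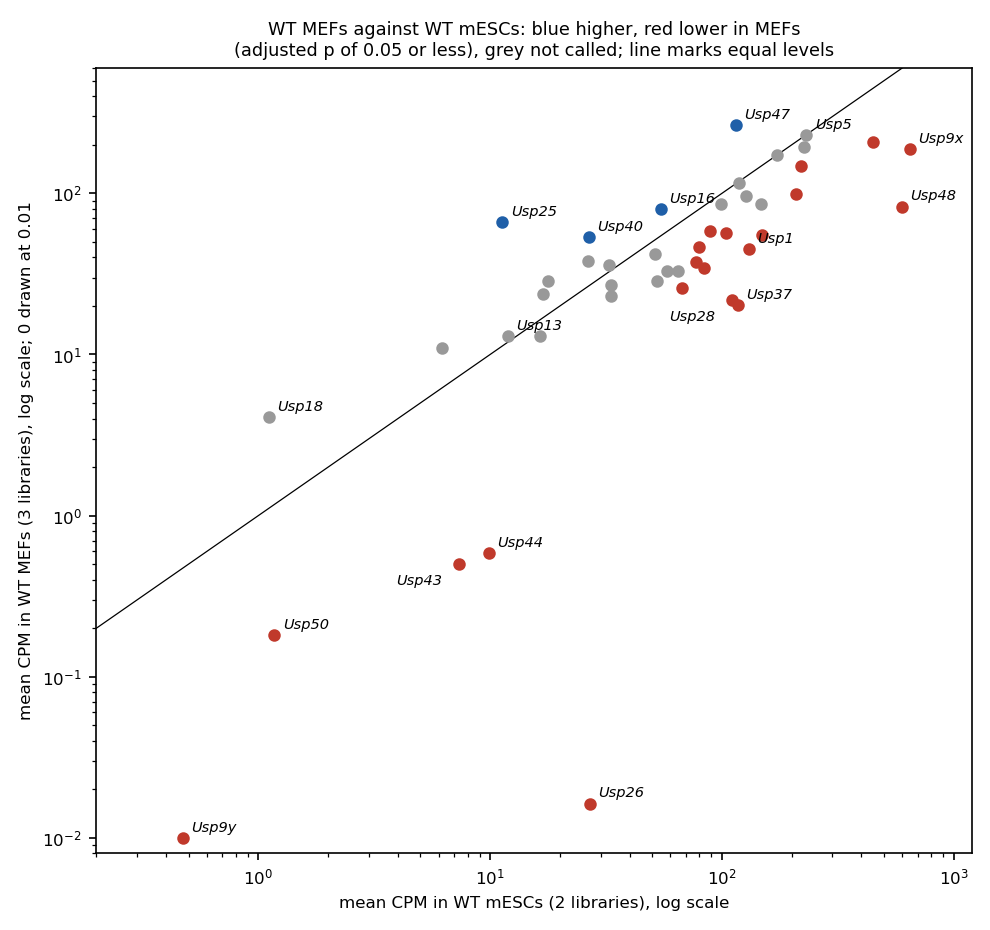
Mean CPM of each gene in WT mESCs (horizontal, 2 libraries) and WT MEFs (vertical, 3 libraries), both on log scales, with the line of equal levels. The 20 red points, with Usp9y (0 in MEFs, drawn near the lower edge) and Usp26 at the bottom and Usp9x and Usp48 at the right, are lower in MEFs, and the 4 blue points are Usp25, Usp47, Usp40 and Usp16.

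Usp26 had the largest difference, 2696 counts in WT mESCs and 2 in WT MEFs, a ratio of 1969 with an exact 95% interval of 545 to 16270. Usp9y had 47 and 0 counts, and the exact 95% interval of its ratio began at 17.9. With 3 counts over the WT MEF group as the floor, the ratio was 22.9. WT MEF replicate 3, which lacked Y-linked transcripts, is part of this group. Usp44 stood at 8.72 and 11.1 CPM in WT mESCs and at 1.10, 0.187 and 0.464 CPM in WT MEFs, all below the mESC values (log2 fold change -4.06, SE 0.78, edgeR adjusted p = 0.00154). Usp43 came next (-3.85, SE 0.551, adjusted p = 0.000277). Usp48, a nuclear member, stood at 597 and 598 CPM against 85.0, 81.6 and 81.9 CPM, with little spread on either side (-2.85, SE 0.178, adjusted p = 2.65e-06). Usp50, Usp37 and Usp28 followed, with log2 fold changes of -2.69, -2.54 and -2.34.

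The 4 genes higher in WT MEFs were Usp25, at 13.2 and 9.39 CPM in mESCs and 84.9, 44.0 and 69.3 CPM in MEFs (log2 fold change 2.55, SE 0.308, edgeR adjusted p = 0.000102), Usp47 (1.20, SE 0.274, adjusted p = 0.00405), Usp40 (1.00, SE 0.255, adjusted p = 0.00698) and Usp16 (0.55, SE 0.2, adjusted p = 0.0377). Usp25 and Usp28 are close paralogues, and they lay on opposite sides of this comparison: Usp28, which stabilises MYC and binds 53BP1, stood at 73.8 and 147 CPM in WT mESCs and at 19.7, 26.1 and 19.7 CPM in WT MEFs. Other related pairs were split as well. Usp16 and Usp45, each called, had means of 54.6 and 83.7 CPM in WT mESCs and of 79.8 and 34.4 CPM in WT MEFs. Usp35 and Usp20 also had higher means in WT MEFs, and their relatives Usp38 and Usp33 lower ones, of which Usp38 was called. In some pairs both members lay lower in WT MEFs, as in Usp44 and Usp49 (-4.06 and -0.34), Usp12 and Usp46 (-0.82 and -0.87) and Usp31 and Usp43 (-0.87 and -3.85). Of these, Usp44, Usp46 and Usp43 were called. The calls of Usp16 and Usp46 were weak: that of Usp16 held in 8 of 19 alternatives and that of Usp46 in 12 of 19, and both were lost in the fit that blocks on the replicate number (adjusted p = 0.0588 and 0.0840), while those of Usp47 and Usp40 were lost only without WT mESC replicate 2 (adjusted p = 0.0534 and 0.0642). Usp5 and Usp13 did not differ beyond their spread between the WT cell types, with log2 fold changes of -0.02 (SE 0.228, adjusted p = 0.959) and 0.12 (SE 0.272, adjusted p = 0.739). Usp18, which was not called, had a fitted log2 fold change of 1.87, above that of Usp47.

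Levels of different members were compared on the authors' normalized reads per kb of median transcript length. By a median above 10 over the libraries, 44 of the 45 members were expressed in mESCs and 40 in MEFs, all but Usp9y in the former and all but Usp9y, Usp26, Usp43, Usp44 and Usp50 in the latter. In WT mESCs the highest were Usp48 at 41130 ± 576, Usp5 at 11949 ± 1323 and Usp32 at 11089 ± 2343 (SD, n = 2), and the lowest were Usp18, Usp50 and Usp9y at 74.9, 50.9 and 2.48. Usp5 and Usp32 differed by less than the SD of either. In WT MEFs the highest were Usp5 at 10477 ± 1426, Usp19 at 6585 ± 1253 and Usp32 at 5727 ± 2772 (SD, n = 3), and the lowest were Usp43, Usp26 and Usp9y at 6.28, 0.149 and 0. Within pairs of related genes the same scale gave 109 for Usp25 and 8014 for Usp28 in WT mESCs, and 567 and 1409 in WT MEFs. With the longest GENCODE M21 transcript as length, in CPM per kb, Usp25 stood below Usp28 in WT mESCs (2.36 and 26.7) and above it in WT MEFs (13.8 and 5.28), so their order in MEFs depends on the length used. Usp13 stood far below Usp5 in both, at 226 against 11949 in mESCs and 217 against 10477 in MEFs. Usp20 stood below Usp33 (1201 and 4596 in mESCs, 1717 and 3542 in MEFs), Usp35 below Usp38 (138 and 932, 215 and 484) and Usp12 below Usp46 (631 and 2074, 317 and 1004). Of the 3 relatives Usp4, Usp15 and Usp11, Usp4 was the highest in both cell types with either length. Usp11 was the lowest by median length, but by the longest transcript it ranked above Usp15 in WT mESCs (ranks 21 and 26 of 45) and just below it in WT MEFs (ranks 23 and 22). Usp16 and Usp45 were close in mESCs (1658 and 1488) and apart in MEFs (2144 and 543). The order of levels depends on the length: with the longest transcript in place of the median, Usp32 ranked 15 in mESCs and 17 in MEFs, while Usp48 and Usp5 still led in mESCs and Usp5 in MEFs.
Usp50 overlaps Usp8 on the opposite strand, 20 of the 45 genes overlap some gene on the opposite strand, and the use of strand in counting is not given in the sources used here, so low values of such genes are uncertain.

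Deubiquitylases of other families were set beside the ubiquitin-specific proteases as a list of 43 genes. The shares of all genes called were 3.08% higher and 3.88% lower in mESCs, and 5.01% and 4.39% in MEFs. In mESCs 43 were tested and 2 were called lower, Uchl1 (log2 fold change -1.66, SE 0.235, edgeR adjusted p = 0.0214) and Atxn3 (-0.87, SE 0.209, adjusted p = 0.0496), with a median of 0.12 over the list. In MEFs 42 were tested, Mindy2 was called higher (1.42, SE 0.307, adjusted p = 0.0402) and Josd2 lower (-1.50, SE 0.34, adjusted p = 0.0436), with a median of 0.19. Of the 5 ubiquitin-specific proteases left out here, Usp22, Usp27x, Usp51, Usp7 and Usp29, none was called in either genotype comparison.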

How the data were processed

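RNA-seq of 11 libraries is given in 1 deposited table for each cell type. The authors prepared TruSeq Stranded mRNA libraries, and the submitters' processing notes name bcl2fastq 2.17.1.14, cutadapt 1.10, STAR 2.5.3a, HTSeq 0.6.1p1, DESeq2 1.16.1 and mm10; the gene annotation and the strand setting of the counting are not given in the sources used here. The deposited raw counts are whole reads per gene. The deposited normalized signal is the count divided by a DESeq2 size factor, also given per kb of median transcript length. The authors also give log2 fold changes and p-values of their own, which were not used, nor was a nameless column of the MEF table. The study excluded 1 WT mESC dataset, which was not analysed here.

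Counts were filtered with filterByExpr, normalized by TMM and tested with edgeR 4.0.16 in R 4.3.3 by the quasi-likelihood test, each cell type by itself, and the interaction and the WT cell types in 1 fit of all 11 libraries, where a gene missing from 1 table was set to 0. Benjamini-Hochberg adjustment ran over all genes tested, with a threshold of 0.05. CPM are TMM-normalized within a cell type, or over all 11 libraries for WT MEFs against WT mESCs. Intervals and floors of counts (3) cover counting error only. Named were the members called in a genotype comparison or in the interaction. The 3 that moved most on either side were named for each genotype comparison and for the WT cell types. The histone, sex-linked and ISG15 members, the 3 highest and lowest, and related pairs were also named. Members, lists and tests were chosen with earlier results of these data known. Replicate numbers come from the labels, and each line comes from its own blastocyst or embryo. In MEFs, deviations of same-numbered libraries from their group means were positively correlated (r = 0.473, 0.161 and 0.24), so the replicate block is given there. Deviations within a group sum to 0, so these 3 values are not independent. A litter or day shared by same-numbered libraries is not stated in the sources used here. Alternatives were normalization by RLE or by the upper quartile, omission of the filter, at least 10 counts in every library, DESeq2 1.42.0, the block, a GC correction (lowess span 0.3), 1 fit of all libraries, a 2-fold and expression threshold, leaving out each library, and, chosen after seeing the data, the 8 libraries with Y-linked transcripts and the longest transcript as length. Fits were tested on simulated counts. Promoters and their build come from RefSeq, exons from GENCODE M21. Results of 1 list of interferon response genes are not reported here in full.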

Additional observations from a re-analysis of the deposited data

Results flagged for a closer look

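The genotype effect differed between MEFs and mESCs for 11 of the 45 members by the test of the interaction itself, with an adjusted p of 0.05 or less. By the same rule 5.68% of 20063 genes were called with a higher and 4.83% with a lower effect in MEFs. With the replicate block 4 members were called, and the next section gives the other alternatives. The difference in log2 fold change (MEFs minus mESCs) was 2.72 for Usp53, 2.33 for Usp13, 1.97 for Usp1, 1.87 for Usp31, 1.87 for Usp12, 1.68 for Usp54, 1.66 for Usp46, 1.49 for Usp38, 1.05 for Usp36, 1.02 for Usp16 and -4.19 for Usp44. For Usp44 the difference rests on 79 counts in WT and 5 in labelled Atxn7l3-/- MEFs, and its fitted size depends on the prior count. Groups held 2 or 3 libraries, too few for a test of single outlying libraries. Y-linked transcripts, the mesothelial markers in MEFs and the summed fibroblast markers in mESCs moved with some of the same libraries, and their part in these differences was not tested.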

How the results depend on the processing

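All counts here are of genes at the adjusted p of 0.05. The shares of all genes called are given above only for the main fits and for DESeq2 in the genotype comparisons. Without such shares the other counts show how calls depend on the processing and are no result about the members. No called result changed direction under any alternative that was run. The 3 members called in mESCs became 6 with no filter on low counts, 8 with DESeq2, 1 in the fit of all 11 libraries, 0 with the 8 libraries that had Y-linked transcripts and 1 at 2-fold and expressed, and ranged from 0 to 5 when 1 library was left out. The 4 called in MEFs became 2 with at least 10 counts in every library, 7 with DESeq2, 11 in the fit of all 11 libraries and 2 with the 8 libraries, and ranged from 1 to 4. The 11 interactions became 4 with the replicate block, 5 with a GC correction and the block and 0 with the 8 libraries, and ranged from 1 to 12. The 24 members that differed between WT cell types became 15 at 2-fold and expressed and ranged from 16 to 24. Of the other deubiquitylase families, the 2 called in mESCs became 4 with no filter, 7 with DESeq2, 1 each with the block, the GC correction, both and the 2-fold threshold, and 0 in the fit of all 11 libraries and with the 8 libraries, ranging from 0 to 5. The 2 called in MEFs became 6 with DESeq2, 1 with the GC correction, 5 in the fit of all 11 libraries and 0 with the 8, ranging from 0 to 2. The interaction was called for 2 of these 43 genes, Uspl1 and Atxn3, with a higher effect in MEFs. By the same rule 5.68% of all genes were called higher and 4.83% lower. The 2 became 5 with DESeq2, and 1 each with no filter, the block, the GC correction, both and the 2-fold threshold. They became 0 with the 8 libraries and ranged from 0 to 3. The causes were not tested.

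In mESCs same-numbered libraries did not deviate together (r = 0.00777 and -0.172), and the numbers may be names only. The replicate block left 3 members called there, with Usp1 lost (adjusted p = 0.0739) and Usp26 gained (0.0103). In MEFs it left 4, with Usp31 lost and Usp1 gained. Where 1 library was left out of an arm of 2, the lone library was assumed to vary like the others. Depth limits Usp9y, Usp26, Usp44, Usp43 and Usp50 in MEFs, where counts were few.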
